A study of Saccharomyces cerevisiae with 6 samples.

Results

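The genes described here encode Glc7, the catalytic subunit of yeast type 1 protein phosphatase, and 7 proteins that bind or regulate it: GLC7, GLC8, GAC1, PIG1, PIG2, GIP2, REG2 and SHP1. They were taken by gene symbol from the chip annotation deposited with the arrays, which gave 8 genes with 1 probe set each out of 5664 Saccharomyces cerevisiae genes tested. Of these, GAC1, PIG1, PIG2 and GIP2 are the subunits that bring Glc7 to glycogen synthase, whereas GLC8, REG2 and SHP1 regulate the phosphatase in other ways.

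Type 1 phosphatase has little preference for its substrates and is directed to them by regulatory subunits. In budding yeast, glycogen synthase is active when dephosphorylated and glycogen phosphorylase is active when phosphorylated, so that Glc7 bound to a glycogen targeting subunit favours the storage of glucose as glycogen. Protein kinases that include protein kinase A, Snf1 and the cyclin-dependent kinase Pho85 act on the same enzymes or on their regulators.

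RNA was hybridised to 6 Affymetrix Yeast 2.0 arrays. The eEF1A group (2 arrays, replicates 2 and 3) was wild-type yeast with a multi-copy (2u) LEU2 plasmid bearing TEF1, a gene of the translation elongation factor eEF1A, under the control of a constitutive GPD promoter, and its cells are labelled as enlarged. The control group (4 arrays, replicates 1 to 4) was yeast with a control plasmid of the same 2u and LEU2 type, labelled as of normal size, so both groups carried a plasmid and its marker. All cultures were grown without leucine at 30°C, diluted to an optical density of 0.1 and collected at 0.7. The methods describe triplicate cultures and the labels give 2 and 4 arrays, so the p-values measure the spread between these arrays. Values are log2 expression values, and a difference is the eEF1A mean minus the control mean. Rises and falls named below had an adjusted p under 0.05 in limma (Benjamini-Hochberg over all 5664 genes). Levels are not compared between genes, since probe sets differ in their response.

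The arrays were alike within groups, with correlations of 0.997 between the eEF1A arrays and 0.998 to 0.999 among the controls. The shared probe set of TEF1 and TEF2 read 14.50 ± 0.01 (SD, n = 2) in eEF1A cells and 14.49 ± 0.01 (SD, n = 4) in control cells, near the highest mean of any gene (14.67), so it gives no measure of the overexpression. All 4 α-cell genes examined rose (median log2 difference 5.89) and all 7 a-cell genes fell (median -4.79). MET17 and URA3, common strain markers, read 11.55 and 7.41 in eEF1A cells and were within the background, at 4.96 and 4.43, in control cells. Mating type genes and strain markers thus differed between the groups as well, and in every result below the plasmid and these differences cannot be told apart. Nor can fewer cells of a kind and less RNA per cell be told apart in such bulk samples. The median difference between 3′ and 5′ probe sets of 8 control genes, used as a measure of RNA integrity, was 1.19 and 1.36 on eEF1A arrays 2 and 3, against 1.19 to 1.23 on the controls. The 8 genes include URA3, at 2.01 and 1.92 on eEF1A arrays 2 and 3 and 0.34 to 0.70 on the controls. TDH1 went the other way (0.49 and 1.03, against 1.46 to 1.67), as did SPT15. This median therefore does not measure RNA integrity alone.

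In eEF1A cells 4 of the 8 genes rose (GLC8, GAC1, PIG2 and GIP2), 1 fell (REG2) and 3 did not pass the test (GLC7, PIG1 and SHP1). The fitted log2 differences lay between -0.47 for REG2 and 0.77 for GAC1, whose control values were within the background, with a median of 0.17 against 0.04 over all genes. Across all 5664 genes, 27.8% rose and 15.7% fell at the same threshold, the background against which 4 rises and 1 fall among 8 genes are to be read. At the study's own threshold, a B-statistic above 1.5 (the log odds that a gene changed), none of the 8 was called higher or lower, against 6.29% of all genes higher and 2.60% lower. At an unadjusted p under 0.05 from limma, 5 of the 8 were higher and 1 was lower, against 32.9% and 19.2% of all genes. Both eEF1A arrays lay above every control array for 5 of the 8 genes (36.0% of all genes) and below every control array for 1 (21.6% of all genes). The direction of calls across the genome depended on the scaling: 63.9% of the genes called were higher with the deposited values, 47.7% after the S. cerevisiae probe sets were quantile normalized again and 48.2% after median centring. With the second quantile normalization 3 of the 8 rose and 2 fell, against 1368 and 1498 of all 5664 genes. GIP2 then no longer passed and PIG1 did.

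**Figure D1:**
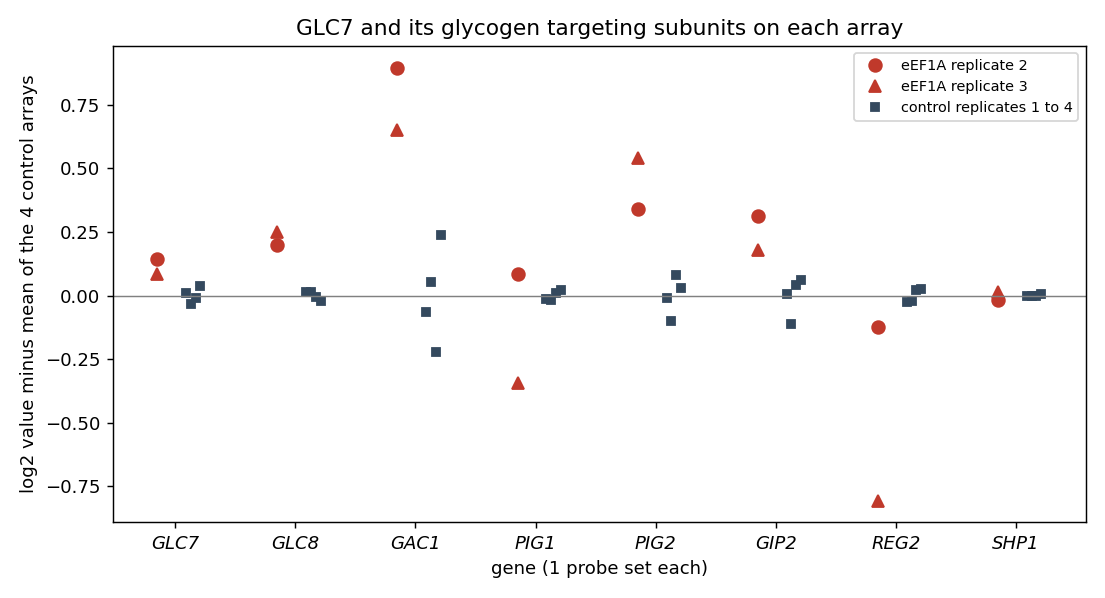
Log2 value of each gene (x axis) on each array minus the mean of its 4 control arrays (y axis), with eEF1A replicates as red circles (replicate 2) and triangles (replicate 3) and control replicates as dark squares. GAC1 and PIG2 lie highest above their controls, and REG2 and PIG1 are the genes on which the eEF1A replicates lie farthest apart, by 0.68 and 0.43.

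GLC7 encodes the catalytic subunit itself and is essential for growth. Its probe set lies on chromosome 5 (chr5:432491-433954, plus strand, October 2003 SGD sequence), where the chip annotation gives 2 exons separated by an intron of 525 bp. GLC7 read 11.49 and 11.43 in eEF1A replicates 2 and 3, against 11.35, 11.31, 11.33 and 11.38 in control replicates 1 to 4. Both eEF1A arrays were above all 4 controls, but the gap was narrow. The difference was 0.11 on the log2 scale (standard error 0.05, 95% interval 0.0003 to 0.23) and missed the threshold (limma, adjusted p = 0.0954). After median centring of the arrays it was 0.055 (limma, adjusted p = 0.31). The upper end of the interval corresponds to a 1.17-fold higher level, so a larger rise of GLC7 RNA lies outside it.

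GLC8 encodes a small regulator related to the inhibitor-2 of animals, which in yeast activates Glc7 and is itself phosphorylated by Pho85. It lies on chromosome 13 (chr13:896914-897603, minus strand). GLC8 read 10.29 and 10.34 in the eEF1A replicates, against 10.11, 10.11, 10.08 and 10.07 in the controls. The groups did not overlap, and the replicates of each lay close together. GLC8 rose 1.17-fold (log2 difference 0.22, standard error 0.05, adjusted p = 0.0063 from limma).

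SHP1 encodes a UBX domain protein that works with the ATPase Cdc48 and is required for normal Glc7 activity. It lies on chromosome 2 (chr2:111398-112669, plus strand). SHP1 read 10.68 and 10.71 in the eEF1A replicates, against 10.70 in each of the 4 controls. The eEF1A arrays fell on either side of the controls. The log2 difference was -0.00070 (95% interval -0.11 to 0.10, adjusted p = 0.992 from limma), which leaves room for a change of up to about 1.08-fold in either direction. Of 13 genes for Cdc48 and its other cofactors, 9 rose and 1 fell (27.8% and 15.7% of all genes), with a median of 0.21. UBX6 (log2 difference 0.50), UBX3 (0.32) and UBX5 (0.27), which encode other UBX proteins, and the deubiquitylase gene OTU1 (0.30) were the largest rises, while CDC48 (0.05, adjusted p = 0.582) and UBX4 (0.08, adjusted p = 0.408) did not pass limma's test.

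GAC1 encodes the best known glycogen targeting subunit, needed for normal glycogen accumulation. It lies on chromosome 15 (chr15:667860-670241, minus strand). GAC1 read 5.49 and 5.24 in the eEF1A replicates, against 4.53, 4.65, 4.37 and 4.83 in the controls. Every eEF1A value was above every control value, and the controls were themselves spread over 0.46. The fitted difference, 0.77 on the log2 scale (standard error 0.12, adjusted p = 0.00165 from limma), passed the test. However, the control mean (4.59) was within the background, taken as 5.18, the level under which 95% of the 5028 probe sets of Schizosaccharomyces pombe lie, a yeast that is on the chip and was not hybridised. The eEF1A mean (5.37) was only just above it. Set against that level in place of the control mean, the eEF1A mean of GAC1 was at least 1.14-fold higher (log2 difference of at least 0.19). This bound uses the eEF1A mean alone and carries no error, and eEF1A replicate 3 (5.24) was barely above the level.

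PIG1, the paralog of GAC1, also encodes a protein that can bind glycogen synthase. It lies on chromosome 12 (chr12:689083-691029, minus strand). PIG1 read 6.75 and 6.32 in the eEF1A replicates, against 6.65, 6.65, 6.68 and 6.69 in the controls. The eEF1A replicates stood on opposite sides of 4 nearly equal controls, and only 3.71% of all genes had a wider gap between the eEF1A arrays. The difference of -0.13 (standard error 0.10, 95% interval -0.37 to 0.11) did not pass (adjusted p = 0.347 from limma). Without eEF1A replicate 2 it was -0.34 and without eEF1A replicate 3 it was 0.086, so no direction can be given for PIG1.

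PIG2 and GIP2 form the other pair of paralogs among the glycogen targeting subunits, and the protein of each can bind glycogen synthase or Glc7. PIG2 lies on chromosome 9 (chr9:271160-272776, plus strand) and GIP2 on chromosome 5 (chr5:262051-263697, minus strand). PIG2 read 7.33 and 7.53 in the eEF1A replicates, against 6.98, 6.89, 7.07 and 7.02 in the controls. The groups were clearly apart. PIG2 rose 1.36-fold (log2 difference 0.44, standard error 0.07, adjusted p = 0.00206 from limma). GIP2 read 5.64 and 5.51 in the eEF1A replicates, against 5.34, 5.22, 5.37 and 5.39 in the controls. The lower eEF1A value was only a little above the highest control, and both group means were close to the background level of 5.18. GIP2 rose 1.19-fold (log2 difference 0.25, standard error 0.07, adjusted p = 0.0192 from limma). The difference was 0.18 without eEF1A replicate 2 and 0.31 without eEF1A replicate 3.

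REG2 encodes a subunit that, with its paralog Reg1, directs Glc7 to the Snf1 pathway of glucose repression. It lies on chromosome 2 (chr2:337142-338158, minus strand). REG2 read 6.24 and 5.55 in the eEF1A replicates, against 6.34, 6.34, 6.38 and 6.39 in the controls. Both eEF1A arrays were below the controls, replicate 2 slightly and replicate 3 by far more. Only 0.724% of all genes had a wider gap between the eEF1A arrays than REG2 (0.68). The fall of REG2 was a log2 difference of -0.47 (standard error 0.15, 95% interval -0.82 to -0.11, adjusted p = 0.0393 from limma). The difference was -0.12 without eEF1A replicate 3 and -0.81 without eEF1A replicate 2, each resting on 1 eEF1A array. Replicate 3 also had the highest median gap between 3′ and 5′ probe sets, though that median includes the strain marker URA3. Its part in the values of REG2 and PIG1 was not tested. REG2 did not pass limma's test when any one control array was left out (adjusted p between 0.0685 and 0.0808).

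**Figure D2:**
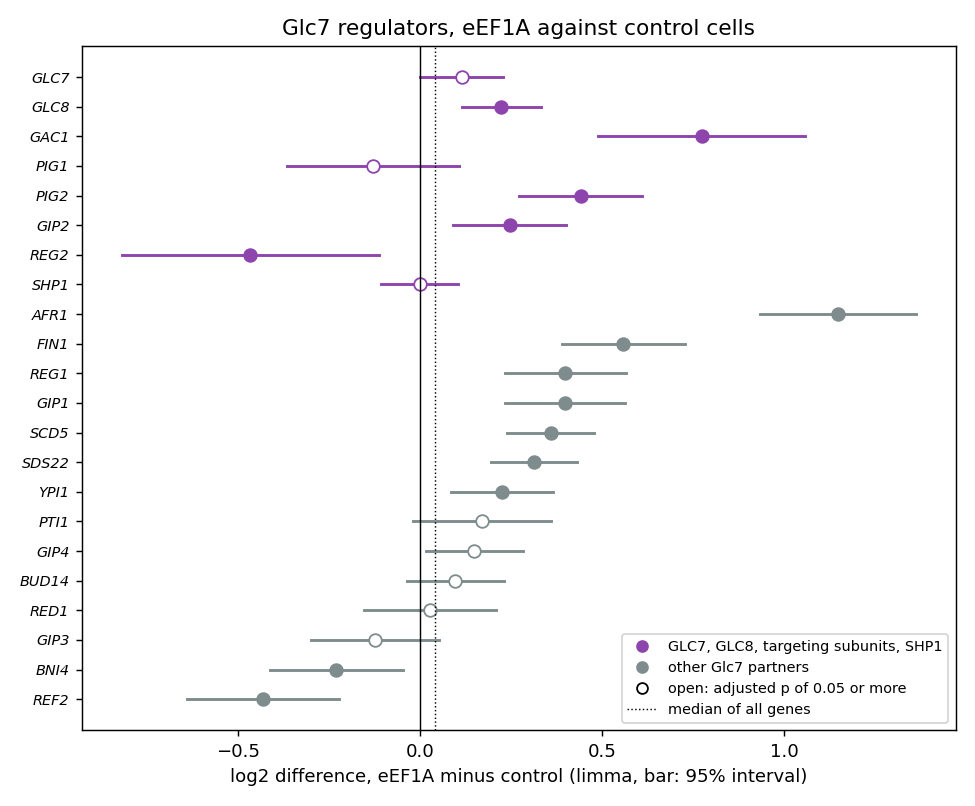
Log2 difference between eEF1A and control cells (x axis) for the 8 genes (purple) and 14 other Glc7 partners (grey), with 95% intervals from limma as bars, filled points where the adjusted p was under 0.05, and a dotted line at the median of all genes (0.04). AFR1 (1.15) lies highest and REG2 (-0.47) lowest.

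Because GAC1 and PIG1, PIG2 and GIP2, and REG2 and REG1 are pairs of paralogs, the changes of each pair were compared within each array, as the value of one gene minus that of the other, relative to the mean of this quantity over the controls. GAC1 minus PIG1 lay between 0.81 and 0.99 on the eEF1A arrays and between -0.23 and 0.22 on the controls, a shift of 0.90. The 2 sets of arrays did not overlap (exact permutation test, two-sided, p = 0.0667). REG1 read 8.88 and 8.86 in the eEF1A replicates, against 8.55, 8.42, 8.34 and 8.56 in the controls, and rose 1.32-fold (adjusted p = 0.00296 from limma). REG2 minus REG1 was between -1.19 and -0.54 on the eEF1A arrays and between -0.11 and 0.15 on the controls, a shift of -0.86 with no overlap (exact permutation test, p = 0.0667). PIG2 minus GIP2 ranged from 0.027 to 0.36 on the eEF1A arrays and from -0.034 to 0.037 on the controls, and the ranges overlapped (shift 0.19, exact permutation test, p = 0.133). With 2 against 4 arrays there are 15 ways to assign the labels, so 0.0667 is the smallest p this test can give and none of the 3 pairs could pass. Adjusted over the 3 pairs, the exact p-values were 0.1, 0.1 and 0.133. As GAC1 was within the background in control cells, its shift against PIG1 rests on control values with little signal.

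**Figure D3:**
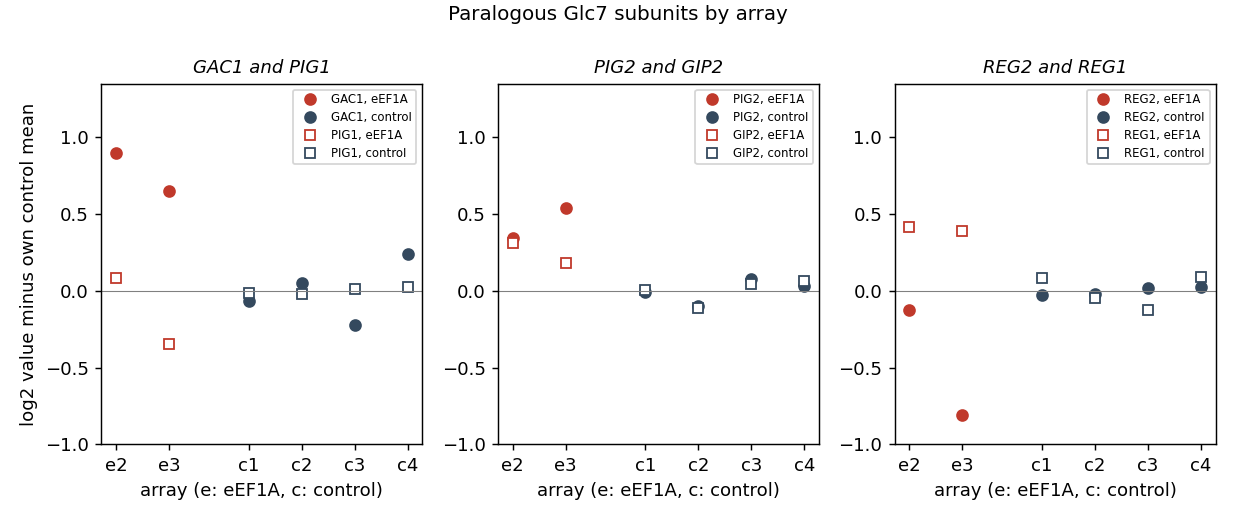
Log2 value minus the gene's own control mean (y axis) on each array (x axis, eEF1A replicates 2 and 3 at the left of each panel and control replicates 1 to 4 at the right) for 3 pairs of paralogs, filled circles for the first named and open squares for the second. GAC1 was above PIG1 and REG1 above REG2 on both eEF1A arrays, while PIG2 and GIP2 both lay above their controls.

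Further partners direct Glc7 to other substrates. Of 14 genes for them 7 rose, 2 fell and 5 did not pass, against 27.8% rising and 15.7% falling among all genes, with a median of 0.20. AFR1, which has a role in the mating projection and the response to pheromone, had the largest change, a 2.21-fold rise (log2 difference 1.15, standard error 0.09), in arrays whose mating type genes also differ. FIN1, which encodes a spindle protein, rose 1.47-fold, and REF2, of the machinery that forms the 3′ ends of RNA, fell by 0.43. BUD14 (log2 difference 0.10, adjusted p = 0.211) and GIP3 (-0.12, adjusted p = 0.23) did not pass limma's test. In the annotation of the chip 7 genes belong to the type 1 phosphatase complex, namely GLC7, GAC1, PIG1, GIP2, REG2, REG1 and GIP1. Of these 4 rose and 1 fell (27.8% and 15.7% of all genes). All of them were already counted above, REG1 and GIP1 among the 14 partners and the others among the genes described first. Among the catalytic subunits of other phosphatases of the same and related families, 3 of 11 rose and 2 fell, close to the 27.8% and 15.7% of all genes, with a median of -0.03. PPZ1 and PPZ2, the closest of these to type 1 phosphatase, rose by 0.37 and 0.32, and CMP2, a catalytic subunit of calcineurin, by 0.32. PPH3 fell by 0.68, whereas SIT4 (-0.16, adjusted p = 0.104) and PPH22 (0.15, adjusted p = 0.117) did not pass limma's test.

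The list of glycogen enzymes, among them the Glc7 substrates glycogen synthase and phosphorylase, had a larger median difference than any list of phosphatase genes. Of 8 glycogen enzymes 7 rose and 0 fell, against 27.8% and 15.7% of all genes (also 7 and 0 at an unadjusted p under 0.05 from limma), with a median of 1.13 and a range from 0.05 to 3.19. GSY1 and GSY2, for glycogen synthase, were higher by 3.19 and 1.79, GPH1, for phosphorylase, by 1.70 and GLC3, for the branching enzyme, by 1.16, while SGA1, for a glucoamylase of sporulation, did not pass (adjusted p = 0.697). Of 14 genes for kinases and kinase subunits that act on the same enzymes or on Glc8, 7 rose and 1 fell (27.8% and 15.7% of all genes), with a median of 0.17. TPK2, for a catalytic subunit of protein kinase A, was higher by 0.71, PCL6, a Pho85 cyclin linked to the phosphorylation of Glc8, by 0.67 and SIP2, for a subunit of the Snf1 kinase, by 0.53. SNF4 (-0.03, adjusted p = 0.723) and GAL83 (0.15, adjusted p = 0.0519), of the same kinase, did not pass limma's test.

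**Figure D4:**
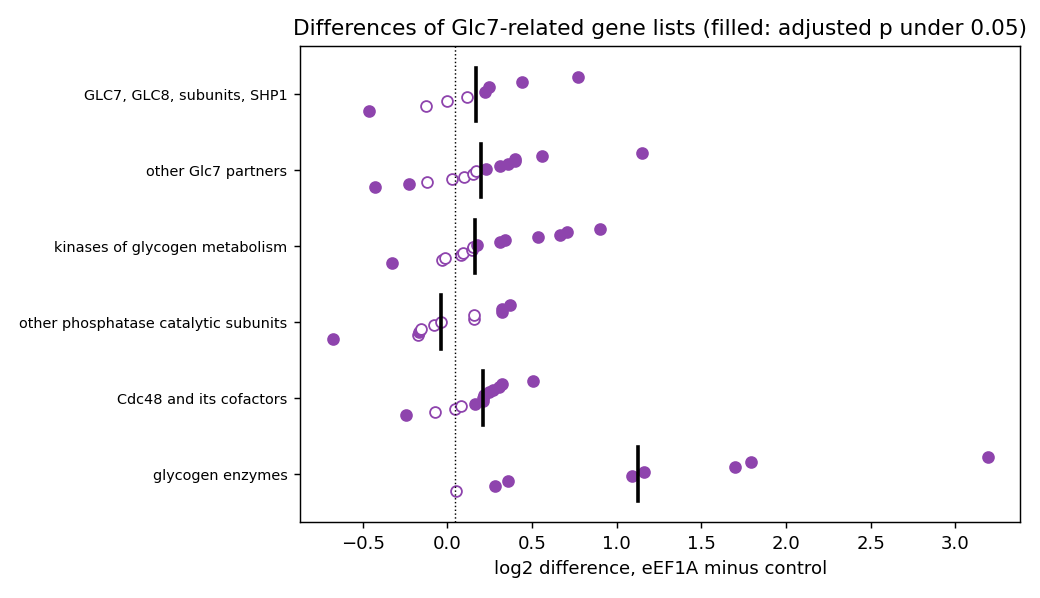
Log2 difference between eEF1A and control cells (x axis) for each gene of 6 lists (rows), filled where the adjusted p was under 0.05, with a black bar at the median of each list and a dotted line at the median of all genes. The medians of the phosphatase lists lie between -0.03 and 0.20, and that of the glycogen enzymes at 1.13.

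The genes whose course over the 6 arrays was most like that of a changed gene were found by the root mean square distance between values set relative to the control mean, with no test. Nearest to GLC8 were MAG2 and YFT2 (distances of 0.016 and 0.016 on the log2 scale). Nearest to PIG2 were EFM3, for a methyltransferase of an elongation factor, and YNR065C (0.030 and 0.036), and nearest to GIP2 were TOK1, for a potassium channel, and TAZ1, for a cardiolipin remodelling enzyme (0.018 and 0.022). GAC1 lay nearest to ISF1 and YGR109W-B (0.073 and 0.087), which were farther than any neighbour listed for the other changed genes. REG2 lay nearest to HLR1 and SPH1 (0.035 and 0.067), the first about as close as the neighbours of PIG2. None of the 8 genes was among the 2 nearest of a changed gene. The nearest genes of GLC7, PIG1 and SHP1, which did not pass, were not sought.

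The 18 other settings with the same threshold are not independent checks. Workbook values, averaged probe sets and probe sets of single genes only left the values of the 8 genes as they were. The replicate block gave all 8 genes the same standard error. Settings without an eEF1A replicate rest on 1 eEF1A array and are not counted here. In the remaining settings PIG2 passed throughout, as did GAC1 except where a filter on dim probe sets removed it. GLC8 passed except with the replicate block and with only the arrays that share a replicate number. GIP2 failed in those as well, and with the second quantile normalization, limma-trend and array weights. REG2 failed with only the arrays that share a replicate number and when any one control array was left out. PIG1 passed only with the second quantile normalization, GLC7 only with limma-trend and SHP1 in none.

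**Figure D5:**
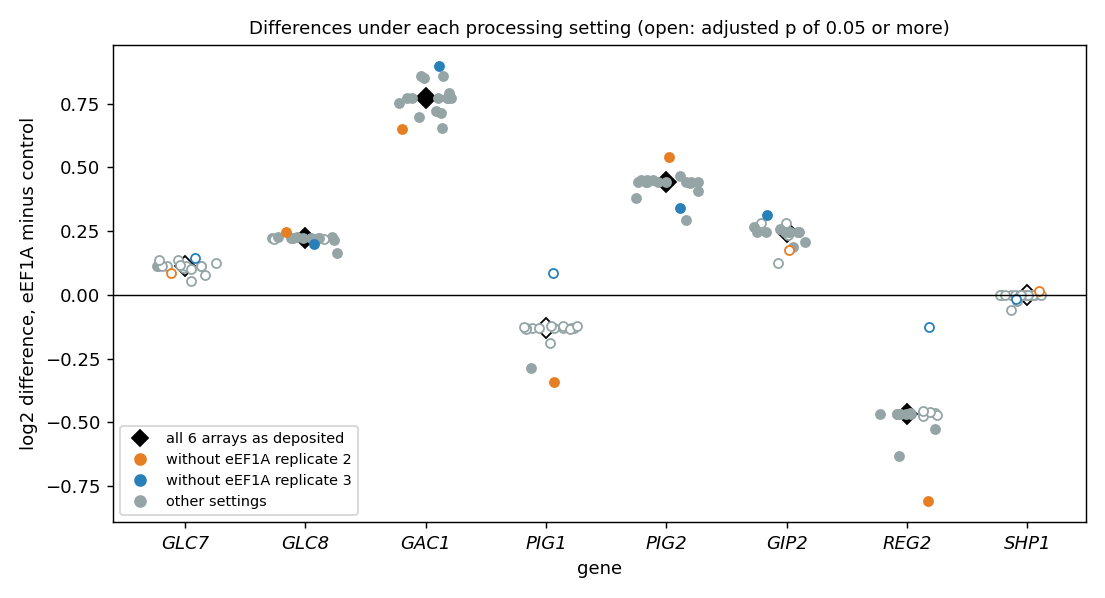
Log2 difference between eEF1A and control cells (y axis) of each gene (x axis) with all 6 arrays (black diamonds), without eEF1A replicate 2 (orange), without eEF1A replicate 3 (blue) and under the other settings (grey), filled where the adjusted p was under 0.05. PIG2 and GAC1 stay filled wherever both eEF1A arrays were kept, and REG2 and PIG1 move most with the eEF1A array left out.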

How the data were processed

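Log phase RNA of 2 eEF1A and 4 control cultures was hybridised to Affymetrix Yeast 2.0 arrays. The authors normalized the arrays with RMA (no version given) in affylmGUI and deposited log2 expression values, from which the work started. Quantile normalization within RMA makes the arrays' distributions equal over the whole chip, and thereby hides any change common to most genes. Medians of the S. cerevisiae probe sets still differed, at 9.13 and 9.04 on eEF1A arrays 2 and 3 against 9.01 to 9.06 on the controls. Sheets with the authors' own differences, p-values and B-statistics were not used. A further workbook sheet holds the same values (largest difference 5.00e-09).

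A linear model (limma 3.58.1, R 4.3.3) was applied to the 5746 probe sets with a yeast systematic name, with group as the only term (4 residual and 4.18 prior degrees of freedom). Left out were 64 ribosomal RNA and reporter probe sets and 4 probe sets without annotation. For 55 genes with several probe sets the one with the highest mean was used. RefSeq R64 locus tags matched 5722 probe sets, and coordinates are those of the chip annotation. The number of arrays limits the precision. On simulated arrays the fit was tested for recovery of known changes.

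All 8 genes are named, with up to 4 passing genes of largest change and up to 2 non-passing genes of highest mean from each list, and the 2 nearest genes by profile. A gene of the kinase list is not reported here by name. The genes and lists were chosen with earlier results of these data known. Alternatives were other call rules, scalings, moderation, probe set rules, a replicate block and each array left out. No sequences are shown.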

Additional observations from a re-analysis of the deposited data

How the results depend on the processing

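The counts for all genes and for the 8 genes depended on the call rule and on the arrays. Calling genes by a B-statistic over 1.5 left 356 higher and 147 lower genes, with 0 and 0 of the 8. Quantile normalization again gave 1498 lower genes, 2 of them among the 8, median centring 1476 and array weights 565. With the replicate number as a block (replicate block) 789 genes rose and 438 fell, and 2 of the 8 rose. GLC8 (limma, adjusted p = 0.273) and GIP2 (0.135) then no longer passed, while GAC1, PIG2 and REG2 did. In that fit all 8 genes had the same standard error, 0.137, so their calls follow the size of the difference and not the spread of each gene. Whether the numbers pair the arrays is not known. Deviations from the group means correlated at -0.02 and -0.04 for the arrays numbered 2 and 3. With 2 eEF1A arrays these deviations mirror each other, so the correlations cannot exclude a pairing. With only the arrays numbered 2 and 3, 863 genes rose and 466 fell, and 2 and 0 of the 8. SHP1, which never passed, changed sign with the block and with only those arrays (0.00078 each) and ranged from -0.016 to 0.015 with 1 array left out. PIG1 ranged from -0.34 to 0.086 with 1 array left out, and both ends rest on 1 eEF1A array. With any 1 control array left out 0 of the 8 genes fell, against 688 to 738 of all 5664 genes. The shift of PIG2 against GIP2 ranged from 0.027 to 0.36 and that of REG2 against REG1 from -1.19 to -0.54, the low end of the first and the high end of the second without eEF1A replicate 3 and the other ends without eEF1A replicate 2. GLC7 passed with limma-trend only (adjusted p = 0.049). Median centring, robust moderation, all probe sets in the moderation and the filter on dim probe sets (which removed GAC1) changed no call of the 8. Nor did workbook values, averaged probe sets or probe sets of single genes only. These left the values of the 8 genes as they were, so they are no test of those values. The cause of each change was not tested. With 2 eEF1A cultures, and GAC1 and GIP2 close to the background, small differences are not resolved.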
